A study of Mus musculus with 19 samples.

Results

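Clec4f and Cd207 are the 2 C-type lectin genes examined here, out of 19938 mouse genes measured on 19 microarrays of sorted liver macrophages. Clec4f was used to mark and to deplete these cells, and Cd207, the gene of langerin, lies beside it on chromosome 6. The pair was chosen by its measured values, because Clec4f was lower and Cd207 higher in Kupffer cells (KCs) of monocyte origin (mo-KCs) than in KCs of embryonic origin (em-KCs) in an earlier look at the same arrays. The levels of both genes in mo-KCs against em-KCs are therefore given as a description, with no test. Each gene had 1 probeset with that single symbol, 10545731 for Clec4f and 10545742 for Cd207.

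All KCs came from livers of mice aged 6 to 12 weeks and were sorted as Clec4F+ cells, so Clec4F protein itself was a sorting criterion. The mo-KCs came from KC-DTR mice given 50 ng diphtheria toxin (DT), at day 15 (n = 3) and day 30 (n = 5) after the toxin. The em-KCs came from KC-DTR mice without DT (n = 3), from littermates without the knock-in (1 without DT, 2 at day 15 and 2 at day 30 after DT) and from WT mice (n = 3), for which the labels name no DT. In KC-DTR mice a cassette with an internal ribosome entry site, yellow fluorescent protein and the human DT receptor sits in the 3′ untranslated region of Clec4f after the stop codon, so the knock-in touches one of the genes measured. Neither the labels nor the methods say how many Clec4f alleles were modified per mouse or which parts of each gene the probes cover.

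Clec4F is a type II membrane protein with a C-type lectin domain that binds galactose and N-acetylgalactosamine, and in mice it is found on KCs. Langerin is a mannose-binding receptor of the same fold that builds the Birbeck granules of Langerhans cells in the epidermis and takes up mannose-bearing microbes. In mice the identity of KCs is known to be set by the transcription factors LXRα and PU.1 and by Notch and BMP signals from the cells of the sinusoid, which act through RBPJ and SMAD4.

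In the RefSeq annotation of GRCm38.p6 both genes lie on the minus strand of chromosome 6, Clec4f at chr6:83644542-83656116 and Cd207 at chr6:83671207-83677857. Cd207 lies upstream of the Clec4f start, with 15090 bases between the genes. The 250 bases before each start are shown 5′ to 3′ on the minus strand because the neighbours differed in opposite directions. Capitals mark 3 short motifs of factors that set the KC programme, searched on both strands: TGGGAA for RBPJ, GAGGAA for PU.1 and CAGAC for SMAD.
Clec4f, chr6:83656117-83656366: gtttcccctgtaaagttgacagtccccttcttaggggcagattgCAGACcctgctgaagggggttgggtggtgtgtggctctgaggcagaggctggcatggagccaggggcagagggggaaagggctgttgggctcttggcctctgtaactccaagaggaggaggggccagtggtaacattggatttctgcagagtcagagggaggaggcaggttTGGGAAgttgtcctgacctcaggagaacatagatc
Cd207, chr6:83677858-83678107: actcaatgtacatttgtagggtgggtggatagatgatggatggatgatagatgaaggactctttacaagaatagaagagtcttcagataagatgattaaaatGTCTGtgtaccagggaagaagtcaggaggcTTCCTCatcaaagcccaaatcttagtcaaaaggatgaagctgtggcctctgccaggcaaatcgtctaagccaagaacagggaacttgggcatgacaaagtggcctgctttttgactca
The window of Clec4f held the RBPJ motif 35 bases before the start and the SMAD motif 206 bases before it, both on the sense strand. The window of Cd207 held the PU.1 motif 118 bases before the start and the SMAD motif 148 bases before it, both on the antisense strand, where they read as TTCCTC and GTCTG in the line above. Neither window held TATAAA. Of 32851 RefSeq promoter windows of the same length, 21.6% held the RBPJ motif, 23.3% the PU.1 motif, 42.2% the SMAD motif and 12.4% TATAAA, so none of these matches is rare, and a match here is a description of letters only.

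The 19 arrays fell into separate sets by 3 Y-linked genes (Eif2s3y, Kdm5d and Uty), whose mean was 3.97 to 4.18 on the log2 scale on 6 arrays and 7.33 to 7.83 on the other 13. The 6 low arrays were day 30 mo-KC replicates 3, 4 and 5 and the 3 WT em-KCs. Every other array, including day 30 mo-KC replicates 1 and 2, was in the high set. The X-linked gene Xist had 8.72 to 9.51 on the 6 low arrays and 4.07 to 4.53 on the other 13. Low Y-linked genes with high Xist are the pattern of female cells, and the reverse is that of male cells. The paper used mice of both sexes, but the labels give no sex per sample. Results that rest on the day 30 or WT arrays are given with this split.

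Clec4f was among the strongest signals on every array. Its probeset lay above 98.5 to 99.5% of all probesets on 15 arrays and above 95.6 to 96.9% on day 30 mo-KC replicates 2 to 5. On the log2 scale of the normalized intensities, day 15 mo-KCs had Clec4f levels of 12.18, 12.21 and 12.16. Day 30 mo-KCs had 12.29, 11.24, 10.95, 10.66 and 11.10 in replicates 1 to 5. The em-KCs of untreated KC-DTR mice had 12.39, 12.17 and 12.36. Day 30 replicate 1 therefore lay within the range of the KC-DTR em-KCs, whereas the other 4 day 30 arrays were below every other array of the series.

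The mean of Clec4f was 12.18 ± 0.03 (SD, n = 3) at day 15, against 12.31 ± 0.12 (SD, n = 3) in untreated KC-DTR em-KCs, a log2 difference of -0.12 with overlapping arrays. It was -0.39 with the hepatocyte mean as a covariate and 0.0061 after subtracting the mean of 3 other KC genes (Vsig4, Cd5l and Adgre1) on each array. In day 30 mo-KCs it averaged 11.25 ± 0.62 (SD, n = 5), which was -1.06 against KC-DTR em-KCs, or 2.08-fold lower. Without replicate 1 the difference was -1.32, or 2.49-fold, and the groups were apart by 0.93. It was -0.54 for day 30 replicates 1 and 2, the arrays of the high Y-linked set, against KC-DTR em-KCs of the same set. It was -1.60 for replicates 3 to 5 against WT em-KCs, all in the low set, with 1.32 between the closest arrays, but these groups also differ in the knock-in. Between day 30 and day 15 mo-KCs the log2 difference was -0.94, again with overlap through replicate 1.

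Cd207 was higher on every mo-KC array than on every em-KC array. Day 15 mo-KCs had Cd207 levels of 11.45, 11.63 and 11.81 on the log2 scale. Day 30 mo-KCs had 11.73, 11.90, 11.94, 11.85 and 11.93. Untreated KC-DTR em-KCs had 10.62, 11.02 and 10.77, and all 8 mo-KC arrays lay above the highest of them. Cd207 was itself a strong signal, above 93.8 to 98.1% of the probesets of each array, em-KCs included.

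The mean of Cd207 was 11.63 ± 0.18 (SD, n = 3) at day 15, against 10.80 ± 0.20 (SD, n = 3) in untreated KC-DTR em-KCs, a log2 difference of 0.83 or 1.77-fold, with 0.43 between the closest arrays. The mean of 11.87 ± 0.09 in day 30 mo-KCs (SD, n = 5) was 1.07 above KC-DTR em-KCs, or 2.10-fold, with 0.70 between the closest arrays. The difference was 1.01 for day 30 replicates 1 and 2 against KC-DTR em-KCs, all in the high set. It was 1.79 for replicates 3 to 5 against WT em-KCs, all in the low set, but these groups also differ in the knock-in. The KC-DTR em-KCs were themselves 0.68 above WT em-KCs in Cd207, with no overlap, though in another array set. Unlike for Clec4f, day 30 replicate 1 was no exception, although its Cd207 level was the lowest of the 5. Day 30 and day 15 mo-KCs differed by 0.24 in Cd207 and overlapped. In these bulk samples a higher or lower level cannot be told apart from more or fewer cells of a type that carry the transcript.

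**Figure D1:**
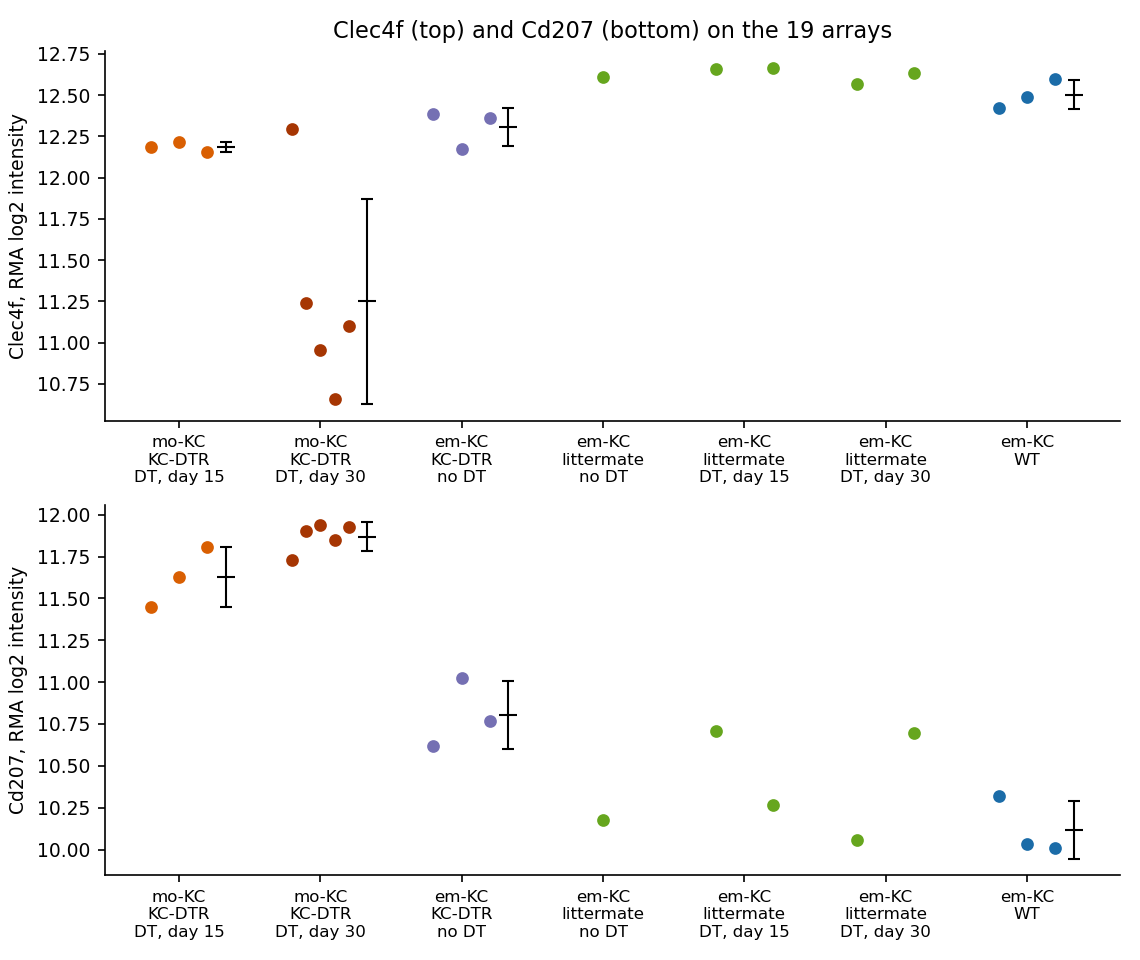
Normalized log2 intensity of Clec4f (top) and Cd207 (bottom) on each of the 19 arrays by condition, 1 point per array in replicate order, with mean and SD as bars for conditions of 3 or more arrays; the axes do not start at 0. Clec4f lies at 10.66 to 11.24 on day 30 mo-KC replicates 2 to 5 and at 12.16 or more elsewhere, whereas Cd207 lies at 11.45 or more on all 8 mo-KC arrays and at 11.02 or less on all 11 em-KC arrays.

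Genotype and origin were then kept apart. Every mo-KC array carries the knock-in and had DT, and there is no KC-DTR em-KC array after DT. Against KC-DTR em-KCs, monocyte origin and DT cannot be told apart in these cells, and against littermate or WT em-KCs, monocyte origin and the knock-in cannot be told apart. The 5 littermate em-KC arrays had Clec4f levels of 12.61 without DT, 12.66 and 12.67 at day 15 after DT and 12.57 and 12.64 at day 30, and the WT em-KCs had 12.42, 12.49 and 12.60. All 8 arrays with an unmodified Clec4f gene were above all 3 KC-DTR em-KC arrays. Their Cd207 levels were 10.18 without DT, 10.71 and 10.27 at day 15 and 10.06 and 10.70 at day 30 after DT in littermates, and 10.32, 10.03 and 10.01 in WT em-KCs.

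From the lowest mean level upwards, Clec4f averaged 11.25 in day 30 mo-KCs, 12.18 in day 15 mo-KCs, 12.31 in KC-DTR em-KCs, 12.50 in WT em-KCs and 12.63 in littermate em-KCs. The only neighbours in this order whose arrays did not overlap were KC-DTR em-KCs and WT em-KCs, which were 0.04 apart at their closest. Cd207 was highest in day 30 mo-KCs, then in day 15 mo-KCs and KC-DTR em-KCs, and lowest in em-KCs without the knock-in, with 10.12 ± 0.17 in WT (SD, n = 3) and 10.38 ± 0.30 in littermates (SD, n = 5). Only day 15 mo-KCs and KC-DTR em-KCs did not overlap among neighbours in that order. The choice of em-KCs changed the size of the mo-KC differences. Against the 5 littermates Clec4f was -0.44 in day 15 mo-KCs and -1.38 in day 30 mo-KCs, with no overlap at either day, and Cd207 was 1.25 and 1.49. Against all 11 em-KC arrays the log2 differences were -0.32 and -1.26 for Clec4f and 1.20 and 1.45 for Cd207.

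**Figure D2:**
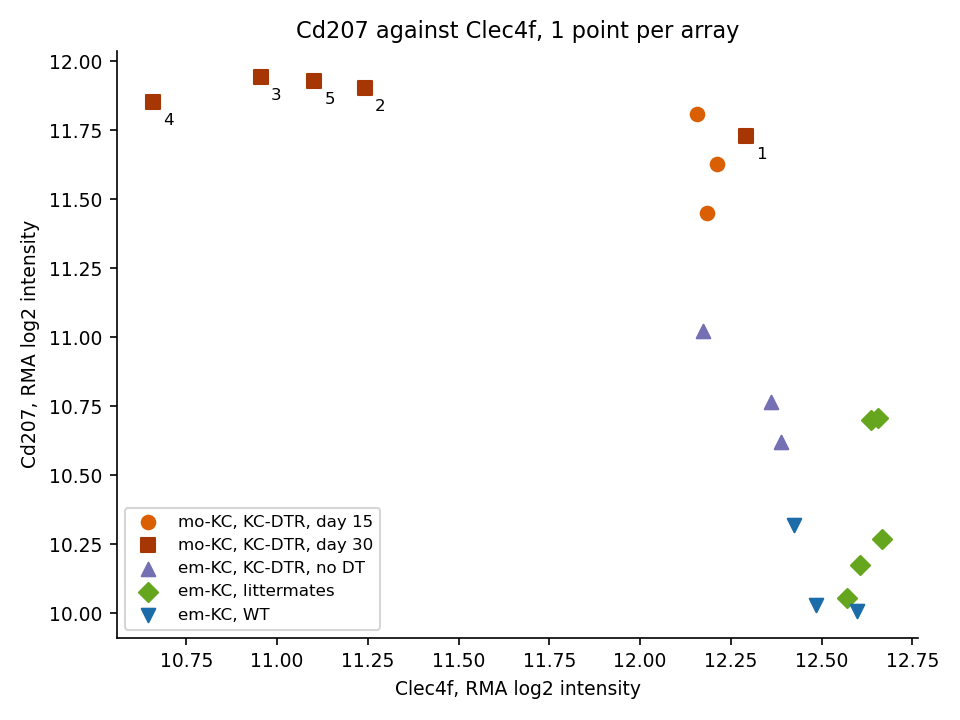
Log2 intensity of Cd207 (vertical axis) against Clec4f (horizontal axis), 1 point per array, with colour and shape for the kind of KC and numbers for the day 30 mo-KC replicates. The em-KCs with an unmodified Clec4f gene lie at the lower right (10.01 to 10.71 for Cd207), the KC-DTR em-KCs overlap them in Cd207 (10.62 to 11.02) and not in Clec4f, and the mo-KCs lie at the top.

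The knock-in was tested among em-KCs, which no value of the mo-KCs enters except through the shared spread. The KC-DTR em-KCs had no DT, whereas all littermate arrays but 1 were taken after DT. Knock-in and absence of DT can therefore not be told apart in the littermate contrast. Across all genes 0 of 19938 (0%) passed an adjusted p of 0.05 in limma for KC-DTR em-KCs against littermate em-KCs, and 769 had an unadjusted p under 0.05, or 3.86%. The methods' equal-variance test called 1499 genes unadjusted and 0 after Benjamini-Hochberg adjustment. Clec4f was 12.31 ± 0.12 in KC-DTR em-KCs (SD, n = 3) and 12.63 ± 0.04 in littermates (SD, n = 5), a difference of -0.32 with a 95% interval of -0.81 to 0.17 in limma (adjusted p = 1). A fit of the 11 em-KC arrays alone, where the scatter of day 30 mo-KCs has no part, gave an interval of -0.52 to -0.12 with an adjusted p of 1 in limma. The groups did not overlap, and the exact permutation test over samples gave p = 0.0179 (two-sided), the smallest that 56 splits allow. Cd207 was 10.80 ± 0.20 in KC-DTR em-KCs (SD, n = 3) and 10.38 ± 0.30 in littermates (SD, n = 5), a difference of 0.42 with an interval of 0.11 to 0.73 in limma (adjusted p = 1) and overlapping arrays. The exact permutation test gave p = 0.0893 for it. With the 3 WT arrays added to the littermates, the difference was -0.27 for Clec4f (limma adjusted p = 0.714, exact permutation p = 0.00606, the smallest of 165 splits) and 0.52 for Cd207 (limma adjusted p = 0.144, exact permutation p = 0.0303). Neither gene passed the threshold over all genes, and the 8 permutation p-values computed in all are not adjusted. The share of all genes that reach such permutation p-values was not computed. The em-KC arrays were also part of the comparison by which the pair was chosen, so these tests are not independent of that choice.

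The 2 sets of em-KCs with an unmodified Clec4f gene were compared in the same way. WT em-KCs averaged 12.50 ± 0.09 (SD, n = 3) and littermate em-KCs 12.63 ± 0.04 (SD, n = 5), a log2 difference of -0.12 with an interval of -0.61 to 0.36 (limma adjusted p = 0.761, exact permutation p = 0.0357). The direction turned to 0.74 in a fit blocked on array set and to 0.73 with the hepatocyte covariate. Only day 30 mo-KCs have arrays in both sets, so the block takes its set difference from their Clec4f levels. The covariate slope was fitted within all conditions, and Clec4f varied most among day 30 mo-KCs (SD 0.62, n = 5). Neither the 0.74 nor the 0.73 is therefore a comparison of em-KCs alone, and neither can show a reversal among them. For Cd207 the log2 difference of WT from littermate em-KCs was -0.26, with an interval of -0.57 to 0.05 (limma adjusted p = 0.247, exact permutation p = 0.25). This contrast called 2793 of 19938 genes, or 14.0%, and WT and littermate arrays lie in different Y-linked sets, so WT origin and array set cannot be told apart. DT without depletion was tested in littermates. The 4 arrays after DT averaged 12.63 and the array without DT had 12.61 for Clec4f (difference 0.03, interval -0.72 to 0.77), and they averaged 10.43 against 10.18 for Cd207 (difference 0.26, interval -0.21 to 0.73). Both had an adjusted p of 1 in limma, where 0% of all genes were called and 441 had an unadjusted p under 0.05, or 2.21%. The methods' equal-variance test called 1080 genes unadjusted and 5 after adjustment, neither member among the 5. With 1 array without DT the intervals are wide, they assume that it varies like the other conditions, and an exact permutation test cannot go below 0.2.

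Some marker lists also differed between conditions, not always in step with Clec4f, and their part in these results was not tested. Among the 8 KC markers other than Clec4f, Timd4, Cd163 and Marco fell in day 15 mo-KCs and Timd4 and Cd163 in day 30 mo-KCs (limma, adjusted p under 0.05), and none rose. Of all genes, limma called 0.391% at day 15 and 0.366% at day 30. Over all arrays Timd4 ran from 7.88 to 12.02, Cd163 from 8.55 to 11.73 and Marco from 8.30 to 10.97. Vsig4 (12.71 to 13.03), Cd5l (12.32 to 12.79), Adgre1 (11.70 to 12.25), Clec1b (11.12 to 11.71) and Csf1r (11.95 to 12.62) varied less and did not pass. The mean log2 level of the 8 markers was 10.86 to 11.05 on day 15 mo-KC arrays, 10.92 to 11.35 on day 30 mo-KC arrays and 11.79 to 11.99 on em-KC arrays. Day 30 replicates 1 and 2, with 11.32 and 11.35, did not differ in this mean as they did in Clec4f. The hepatocyte list, measured on 7 of 8 genes including albumin (Alb), was 8.30 and 8.41 on day 30 replicates 1 and 2, 8.89 to 9.78 on replicates 3 to 5 and 10.83 to 10.99 on WT em-KCs, against 8.81 to 9.52 on KC-DTR em-KCs. The mean of 7 sinusoidal endothelial markers was 10.29 and 10.40 on day 30 replicates 1 and 2, 9.57 to 9.84 on replicates 3 to 5 and 10.21 to 10.35 on KC-DTR em-KCs. Of the monocyte markers, 3 of 5 were measured, and their mean was 7.25 to 7.70 in day 15 mo-KCs, 6.25 to 6.45 in day 30 mo-KCs and 5.46 to 6.53 in em-KCs. The chemokine receptor genes Ccr2 and Cx3cr1 rose at day 15 and Cx3cr1 at day 30 in limma against KC-DTR em-KCs.

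Cells that are known to carry langerin outside the KC lineage were followed through their own markers. The mean of 7 dendritic cell markers was 5.79 to 6.03 in day 15 mo-KCs, 5.69 to 6.00 in day 30 mo-KCs and 5.73 to 5.99 in em-KCs, and none of the 7 passed the test in either mo-KC comparison. The Langerhans cell markers Epcam and Cdh1, both adhesion molecules, averaged 4.73 to 4.77 in day 15 mo-KCs, 4.70 to 5.12 in day 30 mo-KCs and 4.77 to 5.30 in em-KCs, near the low end of the array scale, and neither passed. Of the 3 markers of B cells, T cells and neutrophils (Cd79a, Cd3e and S100a8), none passed. Of all genes 0.391% were called at day 15 and 0.366% at day 30, so counts of 0 in lists this short are near these shares. They do not show whether such cells were present.

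**Figure D3:**
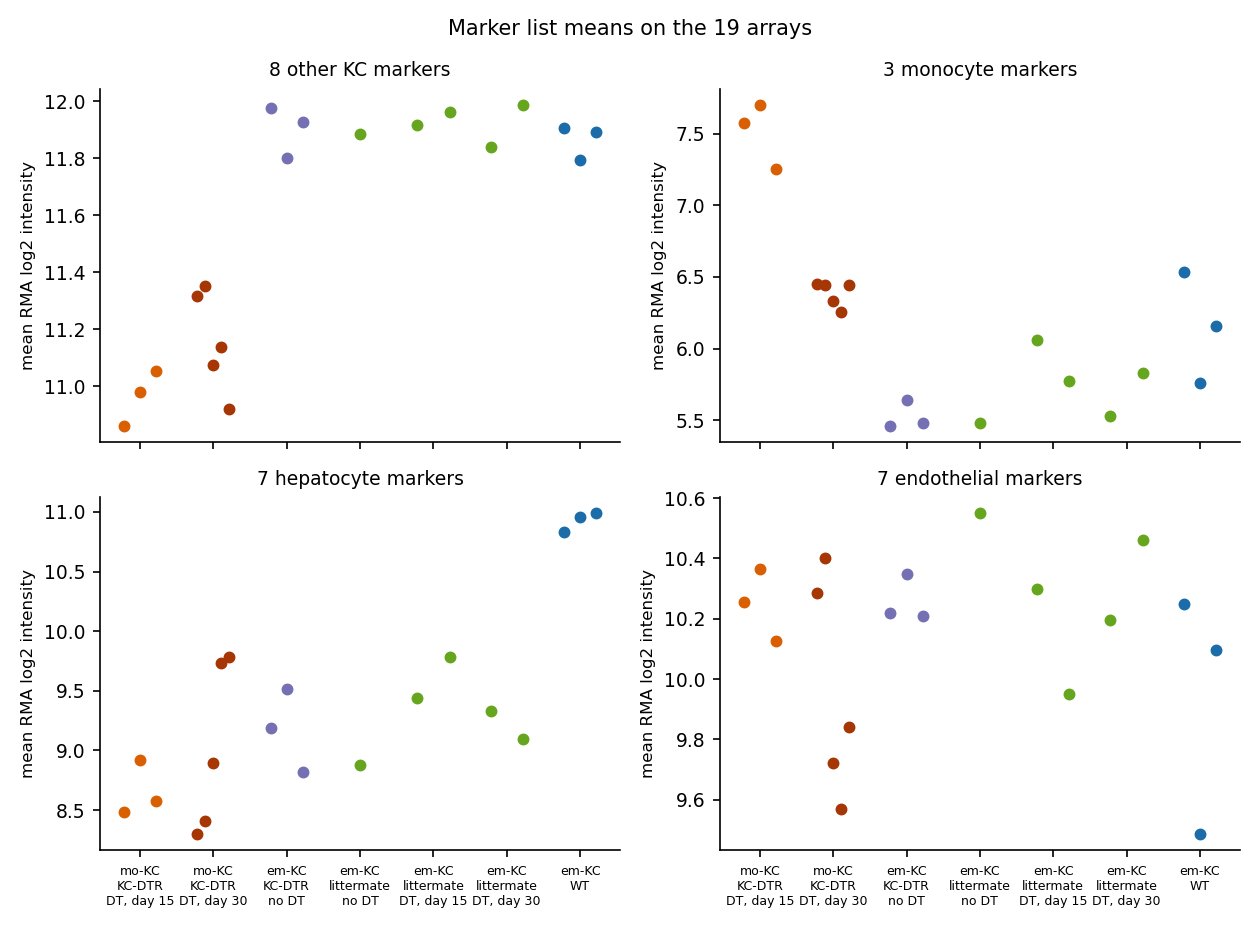
Mean log2 intensity of 4 marker lists (vertical axes) on each of the 19 arrays by condition, 1 point per array in replicate order; the axes do not start at 0. The mean of the 8 other KC markers lies at 10.86 to 11.35 on mo-KC arrays and at 11.79 to 11.99 on em-KC arrays, and the hepatocyte mean is highest on the WT arrays.

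The genes around the pair were examined in the same comparisons. Of 74 other RefSeq genes within 1000 kb of Clec4f on either side, 39 were measured, 23 of them with a mean of 6 or more. None of the 39 passed in day 15 mo-KCs against KC-DTR em-KCs, where limma called 78 of all 19938 genes (0.391%), and 0 had an unadjusted p under 0.05. None passed in day 30 mo-KCs, where 73 genes were called (0.366%), and 2 of the 39 had an unadjusted p under 0.05. None passed for the knock-in among em-KCs, with 0 at an unadjusted p under 0.05. A count of 0 of 39 is near these shares of all genes. The neighbours' log2 differences ran from -0.33 to 0.60 at day 15, -0.50 to 0.44 at day 30 and -0.42 to 0.15 for the knock-in. Clec4f at day 15 (-0.12) and for the knock-in (-0.32) lay within these ranges, for the knock-in with only Cyp26b1 below it. Clec4f at day 30 (-1.06) and Cd207 at day 15 (0.83), at day 30 (1.07) and for the knock-in (0.42) lay outside them. None of this was tested, and the pair was chosen by its values in mo-KCs and em-KCs. The neighbours' 95% intervals lay within 1.5-fold for 33, 34 and 33 of the 39.

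The nearest measured gene on the side of Cd207 was Vax2, a homeobox gene known from eye development. It had 5.84 to 6.15 in day 15 mo-KCs, 5.81 to 6.00 in day 30 mo-KCs and 5.69 to 6.00 in KC-DTR em-KCs. The nearest on the side of Clec4f was Stambp, a deubiquitinase of endosomes, with 7.43 to 7.64 in day 15 mo-KCs, 7.08 to 7.42 in day 30 mo-KCs and 7.06 to 7.72 in KC-DTR em-KCs. Both overlapped between groups. For these and the next nearest genes, Actg2, Dguok, Atp6v1b1 and Ankrd53, the log2 differences from KC-DTR em-KCs were between -0.14 and 0.11 at both days. Only WT em-KCs against littermate em-KCs called neighbours, 7 of 39 or 17.9% beside 14.0% of all genes. Aup1 rose there, and Hk2, Loxl3, Dguok, Stambp, Nagk and Zfp638 fell.

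**Figure D4:**
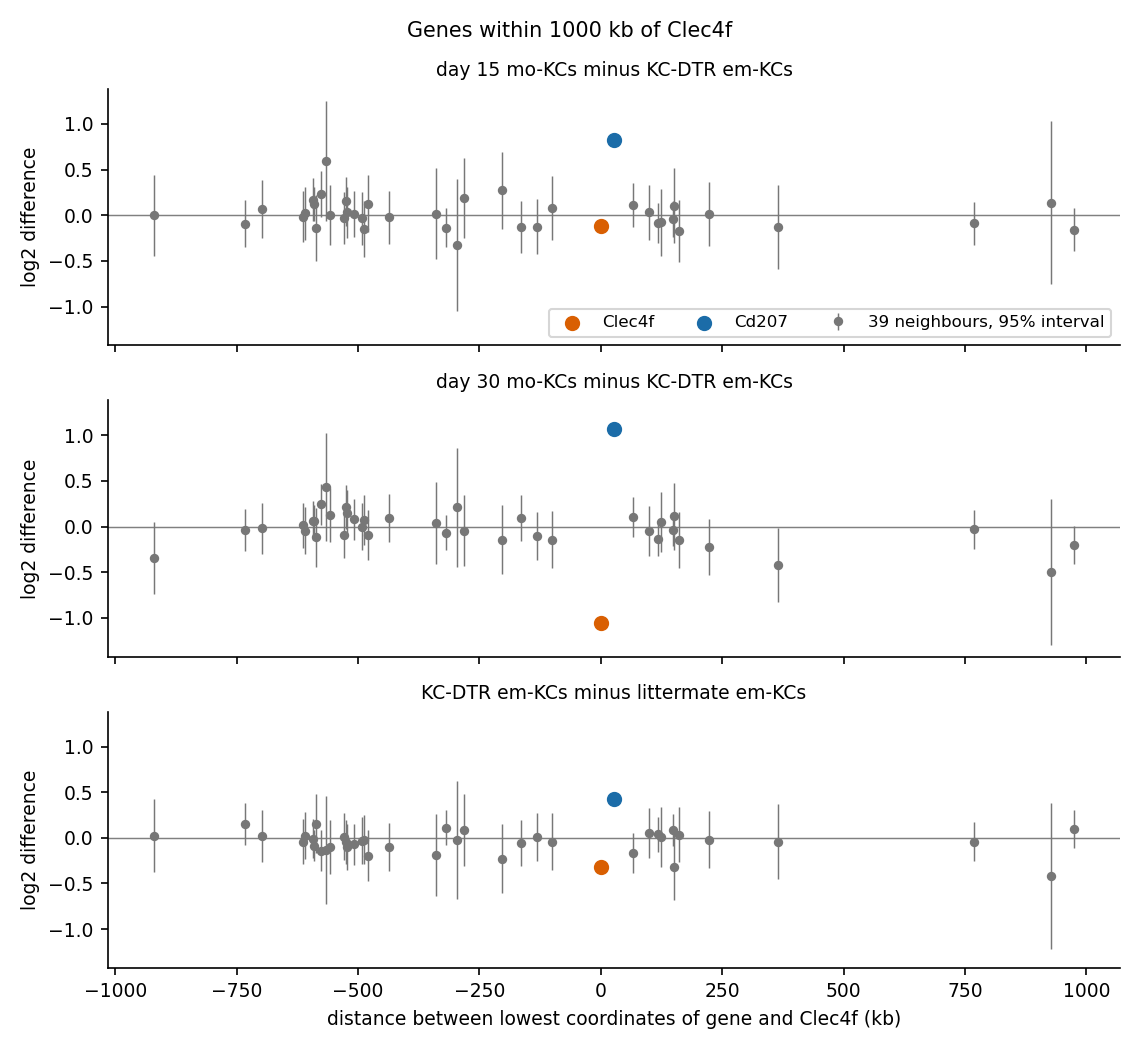
Log2 difference (vertical axes) of genes within 1000 kb of Clec4f against their distance from it in kb (horizontal axis), in 3 comparisons; grey points are the 39 measured neighbours with 95% intervals of the limma fit, coloured points Clec4f and Cd207, drawn without intervals because they were chosen on 2 of the comparisons. The neighbours lie between -0.50 and 0.60; Clec4f is at -0.12, -1.06 and -0.32 and Cd207 at 0.83, 1.07 and 0.42 at day 15, at day 30 and for the knock-in.

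Other lectin receptors of the family mostly did not pass the test. All 31 listed type II C-type lectin receptor genes besides the pair were measured, and 3 fell and 0 rose in mo-KCs at each day, 9.68% of the list beside 0.391% of all genes at day 15 and 0.366% at day 30. The list was drawn up with earlier results of these data known. The paper had already named Cd209f, one of the 3, as the gene with its greatest mean difference, so the share is a description. The median log2 difference of the 31 genes was -0.0042 at day 15 and 0.022 at day 30, beside 0.0054 and 0.0059 for all genes. Clec4b1 had the highest differences of the list, 1.02 at day 15 (limma adjusted p = 0.237) and 0.95 at day 30 (limma adjusted p = 0.148). It passed with the hepatocyte mean as a covariate (limma adjusted p of 0.0325 and 0.0261) and against all 11 em-KC arrays (0.0137 and 0.00455). Cd209f, a mouse member of the DC-SIGN family, had 4.88, 5.07 and 5.70 in day 15 mo-KCs and a median of 6.23 in day 30 mo-KCs (4.77 to 6.83), against 8.41, 8.68 and 9.71 in KC-DTR em-KCs. It fell by 3.72 at day 15 (limma, SE 0.43, adjusted p = 1.28e-04) and fell by 3.07 at day 30 (limma, adjusted p = 5.09e-04), and no array overlapped. Colec12, a scavenger receptor with a collectin domain, had 5.31 to 5.60 in day 15 mo-KCs, 5.55 to 5.91 in day 30 mo-KCs and 7.47 to 8.34 in KC-DTR em-KCs. It fell by 2.37 (limma, SE 0.19, adjusted p = 1.39e-06) at day 15 and fell by 2.05 (limma, adjusted p = 3.21e-06) at day 30.

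The third, Cd209g, was a dim signal with 4.68 to 5.04 in day 15 mo-KCs, 4.64 to 5.11 in day 30 mo-KCs and 5.24 to 5.87 in KC-DTR em-KCs. It fell by 0.76 at day 15 (limma, adjusted p = 0.025) and fell by 0.65 at day 30 (limma, adjusted p = 0.0414). The call was lost on leaving out any of day 15 replicates 1 and 3 and KC-DTR em-KC replicates 2 and 3 at day 15 (adjusted p of 0.121 to 0.199 in limma), and on leaving out day 30 replicates 1, 2, 3 or 5 or the same em-KC replicates at day 30 (0.0523 to 0.293). It was also lost with the hepatocyte mean as a covariate at day 15 (limma adjusted p = 0.0743) and in a fit blocked on array set at day 30 (limma adjusted p = 0.261). The next genes were picked after their values were seen. Clec1b, a KC receptor that binds podoplanin on other cells, averaged 11.57 in day 15 mo-KCs and 11.55 in day 30 mo-KCs, against 11.57 in KC-DTR em-KCs. Clec4g, a lectin of sinusoidal endothelium, averaged 11.72 and 11.83, against 11.67. None of the list passed for the knock-in, where 2 had an unadjusted p under 0.05, and 4 passed in WT against littermate em-KCs, 12.9% of the list beside 14.0% of all genes: Asgr1 and Clec4a1 rose, and Clec1b and Colec12 fell.

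Of 14 genes known from Langerhans cells, the cells that langerin defines, 13 were measured. Itgax, the integrin CD11c, was the only one that rose in day 15 mo-KCs, 7.69% of the list beside 0.391% of all genes, and none fell. It had 5.97, 6.08 and 6.12 in day 15 mo-KCs against 4.66, 4.95 and 5.10 in KC-DTR em-KCs, a log2 difference of 1.15 (limma, SE 0.16, adjusted p = 7.63e-04). Littermate em-KCs lay between them, with 5.27 without DT, 5.66 and 5.91 at day 15 after DT and 5.21 and 5.45 at day 30. The littermates nearest to day 15 mo-KCs were thus those of the same day after DT, and that difference was not tested. None of the 13 passed at day 30, beside 0.366% of all genes, and Itgax averaged 5.27 in mo-KCs and 4.90 in KC-DTR em-KCs (limma adjusted p = 0.447). An unadjusted p under 0.05 in limma was reached there by 5 of the 13, above the 9.25% of all genes. None passed for the knock-in, with 1 at an unadjusted p under 0.05. The median log2 difference of the list was -0.015 at both days. In WT against littermate em-KCs Cdh1, the gene of E-cadherin, rose and Id2, an inhibitor of helix-loop-helix factors, fell, 15.4% of the list and near the 14.0% of all genes.

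Of 23 listed regulators of KC identity, 22 were measured and 0 passed at day 15, at day 30 or for the knock-in in limma, with 0, 5 and 2 at an unadjusted p under 0.05. The counts of 0 that passed are near the shares of all genes (0.391%, 0.366% and 0%). At an unadjusted p under 0.05 the shares of all genes in limma were 5.12%, 9.25% and 3.86%. The 5 of 22 at day 30 and the 2 for the knock-in lay above these shares, and the 0 at day 15 below. All 22 lay between -0.27 and 0.44 at day 15 and between -0.65 and 0.34 at day 30. The factors named next were picked after their values were seen. Nr1h3, the gene of LXRα, averaged 10.43 in day 15 mo-KCs and 10.69 in day 30 mo-KCs, against 10.35 in KC-DTR em-KCs. Rbpj, the nuclear effector of Notch, averaged 7.93 and 8.11, against 7.94, and Smad4, the shared mediator of BMP and TGF-β signals, 8.68 and 8.73, against 8.78. Spic, a factor of iron-recycling macrophages, averaged 10.42 and 10.04, against 10.69, with a limma adjusted p of 0.0975 at day 30. In WT against littermate em-KCs Nr1h3 rose and Id1, Hes1, Bmpr2 and Zeb2 fell, 22.7% of the list beside 14.0% of all genes.

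Genes whose pattern resembled each member were ranked by Pearson's r over the 19 arrays, among 10120 genes with a mean of 6 or more, as a description in which arrays share condition and array set. For Clec4f the highest were Nid2 (0.86), Csnk1d (0.85), Lpcat3 (0.84), Wwc2 (0.82) and Tmco3 (0.82). Nid2, a basement membrane protein, averaged 7.62 in day 30 mo-KCs (7.14 to 8.14) and 8.44 in KC-DTR em-KCs (8.22 to 8.59), and its lowest levels were on replicates 3 to 5. On the 13 arrays with high Y-linked genes alone, r with Clec4f was 0.24 to 0.41 for these 5 genes. After removing condition means over the 19 arrays it was 0.61 to 0.80, so much of this likeness lay within conditions. The lowest were Selenoh (-0.87), Gdf3 (-0.84), Nit2 (-0.84), Chchd4 (-0.83) and Ptges2 (-0.83), with -0.71 to -0.44 on the 13 arrays.

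For Cd207 the highest were Tspan32 (0.94), Glipr1 (0.89), the MHC class II genes H2-Eb1 (0.87) and H2-Ab1 (0.86), and Gdf3 (0.86), a TGF-β family ligand. On the 13 arrays alone these had r of 0.80 to 0.95. Tspan32, a tetraspanin, averaged 7.82 in day 15 mo-KCs and 7.95 in day 30 mo-KCs, against 6.15 in KC-DTR em-KCs. The lowest were Raver2 (-0.93), the complement gene C2 (-0.90), St6galnac2 (-0.90), Apoc1 (-0.88) and Qprt (-0.87). After removing condition means, r for the 5 highest was 0.25 to 0.50, so most of the likeness lay between conditions. Clec4f and Cd207 themselves had r = -0.77 (Spearman's rho = -0.84) over the 19 arrays.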

How the data were processed

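RNA of Clec4F+ KCs sorted from 19 mouse liver samples was hybridised to Affymetrix Mouse Gene 1.0 ST arrays. The authors deposited log2 values per probeset after RMA (background correction, quantile normalization across arrays and probeset summary, per the study's methods), which removes overall shifts between arrays. Of 35556 probesets, 21789 had 1 gene symbol, 1621 several and 12146 none; the probeset with the highest mean stood for each of 19938 genes, with symbols updated through the Entrez identifier to RefSeq (GRCm38.p6). limma 3.58.1 in R 4.3.3 fitted a mean per condition (7 conditions, eBayes, Benjamini-Hochberg over all genes, threshold 0.05); the test was checked on simulated data. Clec4f and Cd207 were tested only among em-KCs, also by exact permutation. The labels call the arrays of a condition biological replicates. No 2 arrays held identical values. The number of arrays limits precision: the median half-width of a 95% interval was 0.27 to 0.42.

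The members and gene lists were chosen with earlier results of these data known. Named were the pair, the 3 nearest measured neighbours on each side, called neighbours, up to 4 called members per list and comparison, and the 5 genes most and least like each member. Promoters are RefSeq sequence. Alternatives covered scaling, array set, reference arrays, a hepatocyte covariate, median centring, a replicate block, limma settings, the methods' test, probeset choice and each replicate left out.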

Additional observations from a re-analysis of the deposited data

How the results depend on the processing

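Clec4f in day 15 mo-KCs against KC-DTR em-KCs (-0.12) was -0.39 with the hepatocyte mean as a covariate, -0.32 against all 11 em-KC arrays, -0.44 against littermates and 0.0061 after subtracting the mean of Vsig4, Cd5l and Adgre1. Its day 30 difference (-1.06) was -0.54 with the array set as a block or on high Y-linked arrays only, and -1.60 for replicates 3 to 5 against WT em-KCs, a choice made after seeing the data; leaving out each replicate gave -1.32 (without day 30 replicate 1) to -0.91. Cd207 at day 15 (0.83) was 1.20 against all em-KCs and 1.25 against littermates; at day 30 (1.07) it was 1.45 against all em-KCs, 1.49 against littermates, 1.24 after subtracting the same 3 genes and 1.79 for replicates 3 to 5 against WT em-KCs. Each direction held for Cd207 in these alternatives. Of the regulators, Spic fell at day 30 (count 1) with the hepatocyte covariate or all em-KCs as reference. Clec4f in WT against littermate em-KCs (-0.12) reversed to 0.74 with the array set as a block (limma adjusted p = 0.16) and 0.73 with the hepatocyte covariate (limma adjusted p = 0.311). The block takes its set difference from day 30 mo-KCs, the only condition with arrays in both sets. The covariate slope was fitted within all conditions, and Clec4f varied most among day 30 mo-KCs. Neither the 0.74 nor the 0.73 is therefore a comparison of em-KCs alone. Beyond this, the cause was not tested in these cases. For the knock-in the lowest adjusted p over the alternatives was 0.371 for Clec4f, with the methods' equal-variance test, and 0.144 for Cd207, with littermate and WT em-KCs as reference in limma. The methods' equal-variance test called 5692 genes unadjusted and 2185 adjusted in WT against littermate em-KCs, where limma called 2793. The WT contrast could not be fitted on high Y-linked arrays, which hold no WT array.

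Replicate numbers did not pair the samples: of 18 same-numbered pairs, 2 correlated above 0.1 in their deviations (-0.12 to 0.15). With a replicate block, Clec4f at day 30 was -0.81, Cd207 1.05, and the count of lectin receptors called at day 30 was 2 in place of 3, with Cd209g lost; the block changed no other call of Clec4f, Cd207 or the 4 lists at day 15, at day 30 or for the knock-in. Dim genes such as Cd209g and the Langerhans cell markers lie near the array's low end, which limits what a difference there can show.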
